A study of Mus musculus with 70 samples.

Results

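The comparison concerns the cells that surround kinase-carrying cells in the colon of chimeric mice: GFP-positive epithelial cells of 2 caMEK1 mice against those of 3 caMKK6 mice, all given doxycycline. The 5 libraries were taken by the group in their labels, from 70 libraries in the series and 23 from the colon (9 groups). The series addresses what happens in cells beside senescent cells. Doxycycline switches on a constitutively active kinase in mCherry-marked cells, either MEK1 (the transgene listed is the frog one) or MKK6 (the human one), and GFP marks neighbours without the kinase. Each library was made from bulk RNA of sorted cells and is given as FPKM, fragments scaled to the length of the gene and the depth of the library.

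All 5 libraries carry the labels C57BL/6, male, colon and day 7. The caMEK1 group (animals 5 and 7) drank 0.2 mg/mL doxycycline and the caMKK6 group (animals 4, 10 and 11) drank 2 mg/mL, both with 10 mg/mL sucrose. Kinase and dose therefore cannot be told apart in this comparison. The same 5 animals each gave an mCherry library. Untreated GFP cells came from 3 caMEK1 and 3 caMKK6 mice. Control mice, with both colours and no active kinase, gave 2 GFP libraries at 2 mg/mL doxycycline, also with 10 mg/mL sucrose and at day 7. No sucrose and no day are recorded for the untreated libraries. Whether these differ from the doxycycline groups in sucrose or time as well is therefore not known here. Crypts were released from the whole colon without the caecum by a chelating buffer, dissociated with trypsin, and sorted by colour with dead cells gated out. The mice are chimeras, so the GFP cells of an animal are whatever share of the epithelium lacked the transgene. The promoter that drives the transgenes and the age of the mice are not given in the sources used here.

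MEK1 is the kinase that activates ERK, and lasting ERK activity drives oncogene-induced senescence. MKK6 activates p38, the kinase of the stress response, which can also hold cells in arrest. Senescent cells secrete cytokines, growth factors and proteases that act on their neighbours. The colonic crypt holds dividing stem and progenitor cells at its base and, above them, absorptive colonocytes, mucus-secreting goblet cells, hormone-producing enteroendocrine cells and chemosensory tuft cells, so a change in its sorted cells can be one of cell make-up or of RNA per cell, and in bulk RNA fewer cells of a type and less RNA per cell cannot be told apart.

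Depth was 7949569 and 9310922 reads in the caMEK1 GFP libraries and 8498683, 8781394 and 13282998 in the caMKK6 GFP libraries. Epithelial identity was plain in all 5: the summed level of 10 defining epithelial markers was 7351 to 7955 FPKM in caMEK1 and 6020 to 9044 FPKM in caMKK6, and none of the endothelial and B or plasma cell markers passed the filter on low values. EGFP was listed at 815 and 620 FPKM in caMEK1 and at 912, 656 and 619 FPKM in caMKK6. A pair of features of the libraries bears on the results. The first is caMKK6 GFP replicate 1, whose residual spread around its group (SD of 0.445 on the log2 scale) was above that of the other two caMKK6 libraries (0.247 and 0.279) and of the caMEK1 pair (0.159). That library also held the highest macrophage marker sum (26.7 FPKM, against 1.10 to 2.84 FPKM over the other libraries), led by Lyz2 at 17 FPKM, and the highest T lymphocyte marker sum (11 FPKM), led by Gzma at 7.02 FPKM. Of the 10 macrophage markers 3 were tested and of the 12 lymphocyte markers 2, none of them called. The part of these cells in the results was not tested, and several counts below, though not all, are also given without this library.

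The second feature is RNA of the kinase-carrying cells in the GFP libraries. The mCherry transcript stood at 12.2 and 25.7 FPKM in the caMEK1 GFP libraries, which is 4.28% and 11.8% of its level in the mCherry library of the same animal. In caMKK6 it stood at 87.5, 9.61 and 11.6 FPKM, or 3.73%, 0.659% and 1.14%. The transgenes gave nearly the same percentages: MEK1 at 12.3 and 28.7 FPKM (4.27% and 12.2%), and MKK6 at 116, 8.50 and 10.6 FPKM (4.37%, 0.527% and 0.876%). In control mice the mCherry share was 0.115% and 0.102%. By either measure the share was highest in caMEK1 replicate 2, caMEK1 replicate 1 and caMKK6 replicate 1 were close to each other, and the other caMKK6 libraries were lowest. The called genes are therefore set beside their mCherry level and beside a fit with this share of the mCherry library subtracted.

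Across 11542 genes (those at 1 FPKM or more in at least 2 colon libraries), limma on log2(FPKM + 1) called 9 genes at a Benjamini-Hochberg adjusted p below 0.05, which is 0.078% of those tested. Of these, 8 were higher in GFP cells of caMEK1 mice: Psca, Pnliprp2, Sprr2h, Prss22, Spink5, Ly6c1, Prl2a1 and Iigp1. The other, Eif2s3y, was lower. Without adjustment 765 genes had p below 0.05. The 95% interval of a log2 difference, not adjusted for the number of genes, reached 0.48 to either side in the median over all genes. With 2 libraries against 3, a call at the adjusted threshold took larger differences than that. The smallest called difference was 1.29 (Prl2a1), while Clca1, at 3.13, was not called. Leaving out caMEK1 replicate 1 raised the count to 19, and the carry-over subtraction lowered it to 4 (Pnliprp2, Spink5, Iigp1 and Eif2s3y). When the subtracted libraries were also rescaled to their former total, 7 were called, 2 of them Psca and Prl2a1. A fit of the 5 libraries alone called 4 genes, 1 of them among the 9 (Eif2s3y), and voom on recovered reads called 4 of the 9 (Psca, Pnliprp2, Prss22 and Prl2a1).

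Psca, prostate stem cell antigen, is a small protein anchored in the outer membrane, and its gene lies on chromosome 15 at 74714839 to 74717069 (GRCm38). It was at 9.80 and 28.5 FPKM in caMEK1 GFP libraries and at 0.684, 0 and 0.788 FPKM in caMKK6 GFP libraries. Both caMEK1 values lay above all caMKK6 values, and the log2 difference was 3.63 ± 0.30 (SE; limma, adjusted p = 4.51e-06). Untreated GFP cells of both lines held at most 0.144 FPKM. In the mCherry libraries Psca reached 199 and 211 FPKM in caMEK1 and 13.4, 12.8 and 10.1 FPKM in caMKK6.

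Pnliprp2, a lipase related to the pancreatic enzyme (chromosome 19, 58759719 to 58777534), was at 11.4 and 39.8 FPKM in caMEK1 against 1.35, 0.724 and 0.766 FPKM in caMKK6. The groups did not overlap, with replicate 2 again the higher caMEK1 library (log2 difference 3.55 ± 0.43, limma adjusted p = 0.000381). It remained called with the carried-over share subtracted. Clps, the cofactor that pancreatic lipases need, was at 23.5 and 33.6 FPKM in caMEK1 and 11.4, 7.83 and 5.79 FPKM in caMKK6. That difference, in a gene of the goblet list, did not pass (1.68 ± 0.36, limma adjusted p = 0.0771), and Clps was listed at 0 in both caMEK1 mCherry libraries.

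Sprr2h, of the small proline-rich family that forms the cornified envelope of skin (chromosome 3, 92385685 to 92387324), was at 2.84 and 17.9 FPKM in caMEK1 and at 0.313, 0 and 0 FPKM in caMKK6 (log2 difference 2.96 ± 0.39, limma adjusted p = 0.000843). Prss22, a tryptase-like serine protease (chromosome 17, 23993534 to 23998100), was at 4.75 and 9.82 FPKM against 0.622, 0 and 0 FPKM (2.75 ± 0.34, adjusted p = 0.00041). Neither gene passed once the carried-over share was subtracted and the library rescaled (adjusted p = 0.524 for Sprr2h and 0.871 for Prss22). Sprr2h belongs to a family of near-identical copies, so its reads may be shared among them.

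Ly6c1, a surface protein of the Ly6 family best known from leukocytes and endothelium, was at 5.25 and 7.43 FPKM in caMEK1 and at 2.46, 0.883 and 0.404 FPKM in caMKK6. Its log2 difference of 1.80 ± 0.32 was the one nearest to the threshold among the higher genes (limma adjusted p = 0.027). It passed in 5 of 17 alternative fits, and after subtraction and rescaling its adjusted p was 0.997. Without caMEK1 replicate 1, caMEK1 replicate 2, caMKK6 replicate 2 or caMKK6 replicate 3 its adjusted p was 0.0616, 0.583, 0.135 and 0.171. The neighbouring Ly6g, also used as a neutrophil marker, was at 37.7 and 102 FPKM in caMEK1 and 23.1, 8.82 and 6.63 FPKM in caMKK6, while the neutrophil marker S100a9 was at 0 in both caMEK1 libraries. In mCherry cells the summed neutrophil markers, Ly6g among them, were at 590 to 1012 FPKM in caMEK1 and 28.0 to 46.7 FPKM in caMKK6. Copies of the Ly6 family share sequence, and how reads were divided between them is not given in the sources used here.

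In caMEK1 animals Spink5 and Iigp1 were at lower levels in the kinase-carrying cells than in the GFP cells around them. Spink5, an inhibitor of serine proteases known from skin, was at 7.44 and 5.97 FPKM in caMEK1 GFP cells and at 0.197, 0.405 and 1.37 FPKM in caMKK6 GFP cells (log2 difference 2.27 ± 0.31, limma adjusted p = 0.00112). The mCherry cells of the same caMEK1 animals held 0.382 and 0.0777 FPKM. Iigp1, an interferon-inducible GTPase that attacks the vacuoles of intracellular parasites, was at 3.33 and 2.60 FPKM in caMEK1 GFP cells and at 0.344, 0.313 and 0.116 FPKM in caMKK6 GFP cells (1.65 ± 0.19, adjusted p = 0.00028). Its mCherry levels were 0.775 and 0.405 FPKM in caMEK1. The caMKK6 mCherry libraries held 0.981, 0.414 and 0.800 FPKM of Iigp1, above the GFP library of the same animal in each, and 0.190, 1.86 and 0.682 FPKM of Spink5, above it in replicate 2 only. For both genes the 2 caMEK1 GFP libraries lay above the other 8 libraries of these animals, of either colour, and both remained called after the subtraction.

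Prl2a1, a prolactin-family hormone of the placenta, was at 1.57 and 1.34 FPKM in caMEK1 and listed at 0 in all 3 caMKK6 libraries (log2 difference 1.29 ± 0.12 on the log2(FPKM + 1) scale, limma adjusted p = 8.33e-06). It fell below the level asked of named genes and is described because it was called. Eif2s3y, the Y-linked copy of a translation initiation factor subunit, was listed at 0 in both caMEK1 libraries and at 14.5, 10.1 and 12.4 FPKM in caMKK6 (-3.73 ± 0.64, adjusted p = 0.0225). Other Y-linked genes followed it: Ddx3y was at 0.0484 and 0 FPKM against 5.93, 6.66 and 7.44 FPKM (adjusted p = 0.0771). Eif2s3y was also at 0 in both caMEK1 mCherry libraries and at 0.0631 FPKM in untreated caMEK1 GFP replicate 2. Both caMEK1 animals thus went against their male label at these genes, and sex and kinase cannot be told apart in this comparison. Leaving out any 1 of the 5 libraries took Eif2s3y past the threshold, with adjusted p from 0.0626 to 0.325.

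**Figure D1:**
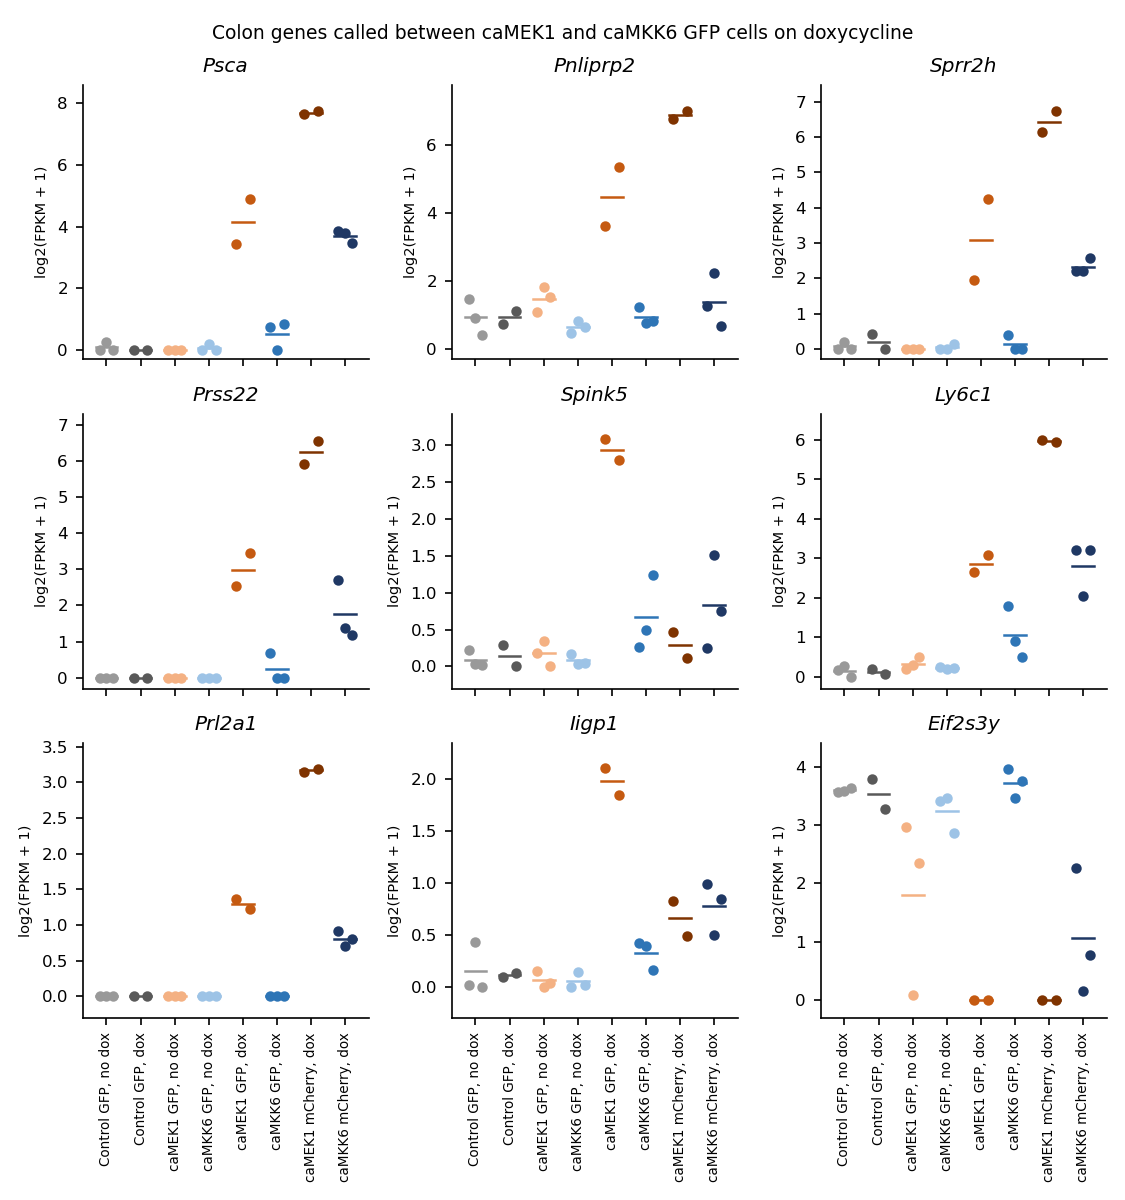
FPKM of the called genes on a log2(FPKM + 1) axis, 1 point per library, by group of colon cells, with the group mean as a bar. Both caMEK1 GFP libraries on doxycycline sit above the 3 caMKK6 GFP libraries for the 8 higher genes, and Spink5 and Iigp1 stay low in the mCherry libraries where Psca reaches 199 and 211 FPKM.

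The promoters of 3 genes are shown because they belong to the genes with the largest differences between these cells, in RefSeq's tables for GRCm38.p6, 250 bases before to 50 bases after the start site. Capitals mark the letters TGANTCA, a binding motif of AP-1, the factor that ERK and p38 both act on, searched on both strands. It occurred in 7.81% of 32851 promoters of that length. Of 8 genes looked up, 5 had an entry (Pnliprp2, Sprr2h, Ly6c1, Prl2a1 and Ang4). Of those, 2 held the motif, Sprr2h with its first base 198 bases and Ang4 122 bases before the start site. The 8 were picked by hand. They leave out the called genes Spink5, Iigp1 and Eif2s3y and include Ang4 and Clca1, which were not called. Their count therefore does not test whether the motif is more frequent in called genes.
Sprr2h, chr3:92385435-92385734, plus strand: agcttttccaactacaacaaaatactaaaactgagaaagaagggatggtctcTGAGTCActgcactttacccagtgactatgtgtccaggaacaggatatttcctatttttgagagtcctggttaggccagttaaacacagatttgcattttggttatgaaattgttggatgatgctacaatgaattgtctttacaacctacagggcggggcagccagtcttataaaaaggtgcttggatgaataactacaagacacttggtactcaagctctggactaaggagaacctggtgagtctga
Ang4, chr14:51773541-51773840, minus strand: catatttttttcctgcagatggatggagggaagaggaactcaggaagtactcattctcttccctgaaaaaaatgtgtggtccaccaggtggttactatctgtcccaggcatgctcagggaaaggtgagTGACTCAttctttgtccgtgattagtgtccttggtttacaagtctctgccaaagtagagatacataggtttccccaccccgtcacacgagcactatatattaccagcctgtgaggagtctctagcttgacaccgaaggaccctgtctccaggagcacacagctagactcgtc
Pnliprp2, chr19:58759473-58759772, plus strand: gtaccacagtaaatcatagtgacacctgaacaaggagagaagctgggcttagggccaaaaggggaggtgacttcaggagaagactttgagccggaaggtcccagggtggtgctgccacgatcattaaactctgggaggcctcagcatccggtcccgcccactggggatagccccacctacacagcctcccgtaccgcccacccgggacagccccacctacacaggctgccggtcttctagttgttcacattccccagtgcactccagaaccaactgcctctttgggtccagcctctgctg
The match describes the letters of the window. No entry was found for Psca, Prss22 and Clca1.

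The called genes differed in how their GFP level compared with the mCherry library of the same animal. In caMEK1 replicates 1 and 2, Psca in GFP cells was 4.93% and 13.5% of its mCherry level, beside 4.28% and 11.8% for the mCherry transcript itself. Sprr2h was at 4.09% and 17%, Prss22 at 8.00% and 10.5%, and Ly6c1 at 8.40% and 12.2%. Pnliprp2 was at 10.5% and 30.9%, and Prl2a1 at 19.9% and 16.4%, above the mCherry share in both animals. Spink5 stood at 1947% and 7682%, and Iigp1 at 429% and 643%. Whether the genes near the mCherry share were transcribed in GFP cells was not tested.

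**Figure D2:**
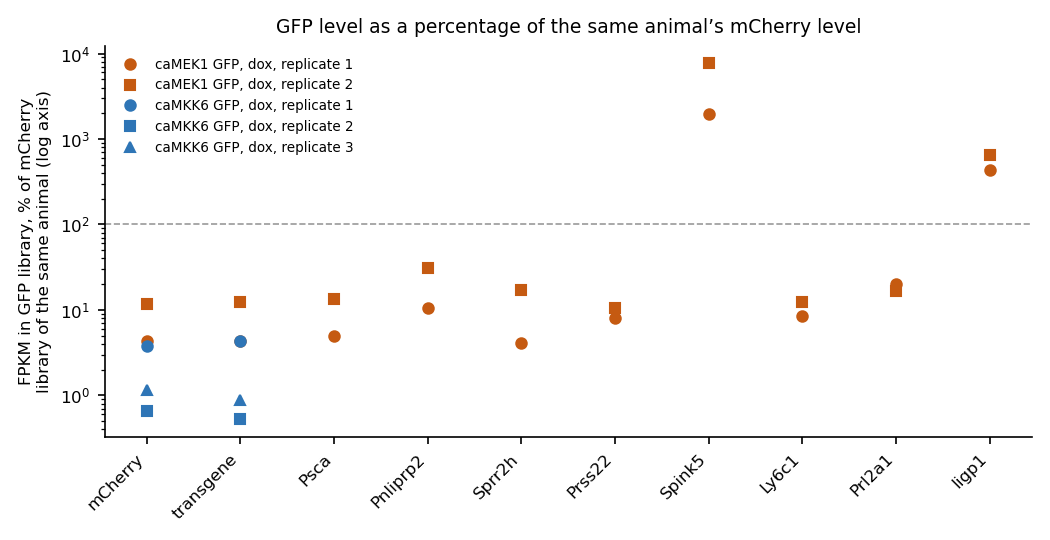
Level of each gene in a GFP library as a percentage of the mCherry library of the same animal (log axis), with 100% as a dashed line. The called genes are drawn for the caMEK1 animals only, 1 point per animal. The mCherry reporter and transgene entries are drawn for the animals of both kinases. In caMEK1 replicate 1, Psca (4.93%) lies beside the mCherry transcript (4.28%), while Spink5 (1947%) and Iigp1 (429%) lie above 100%.

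Genes that differed between the kinase-carrying cells leaned the same way in the GFP cells around them. Both colours come from the same animals, so kinase, dose and differences between the animals themselves cannot be told apart in this lean. In mCherry cells 2389 genes were called between caMEK1 and caMKK6 (20.7%), 988 higher and 1401 lower. Among the 988, the median log2 difference in GFP cells was 0.24 and 84.2% were above 0, against a median of 0.00 and 50.4% over all genes. With the carried-over share subtracted and the libraries rescaled, these were 0.11 and 66.6%. Among the 1401 lower genes the GFP median was -0.16, with 22.9% above 0, and -0.12 with 28.4% after subtraction. Of the 988 genes, 6 were called in GFP cells, beside 0.078% of all genes. Among those called, Pnliprp2 alone remained so with the carried-over share subtracted, and Pnliprp2, Psca and Prl2a1 when the libraries were also rescaled.

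Without doxycycline no gene was called between the GFP cells of the lines. limma called 0 of 11542 genes (0%), with 141 at an unadjusted p below 0.05 and a smallest adjusted p of 1, and voom on the recovered reads also called 0. The dependence of the kinase difference on doxycycline was tested as an interaction, which called 5 genes (0.0433%), all higher: Psca, Sprr2h, Prss22, Prl2a1 and Iigp1. The interaction was 3.69 ± 0.41 for Psca (adjusted p = 0.000366), 3.00 ± 0.52 for Sprr2h (0.0407), 2.75 ± 0.46 for Prss22 (0.0281), 1.29 ± 0.16 for Prl2a1 (0.000793) and 1.65 ± 0.26 for Iigp1 (0.0182). For Spink5 it was 2.18 ± 0.42, with an adjusted p of 0.0949. The count was 11 without caMEK1 GFP replicate 1 and 3 without caMKK6 GFP replicate 2. It was 3 without untreated caMEK1 replicate 1 and 2 without any other single untreated library. Voom on the recovered reads called 0, and the fit with the carried-over share subtracted also called 0, or 1 when the libraries were rescaled.

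Genes just outside the threshold, named after their values were seen, include the next lower ones. Scd1, the desaturase that makes monounsaturated fatty acids, was at 2.78 and 3.29 FPKM in caMEK1 and 14.3, 7.24 and 12.7 FPKM in caMKK6 (log2 difference -1.58 ± 0.30, limma adjusted p = 0.0529). Gstm3, a glutathione transferase with close paralogs, was at 17 and 28.3 against 58.5, 52.2 and 67.0 FPKM (-1.38 ± 0.28, adjusted p = 0.0733). Ccn3, a secreted matricellular protein, was at 5.74 and 7.64 against 33.1, 33.0 and 53.4 FPKM (-2.38 ± 0.51, adjusted p = 0.0771). Each had both caMEK1 libraries below all caMKK6 libraries. The mCherry libraries held these 3 at lower levels in caMEK1 too, at 0.382 and 0.346 FPKM for Ccn3 against 7.69, 5.85 and 9.72 FPKM. Il5ra, the interleukin 5 receptor subunit, was on the other side, at 1.27 and 10.3 FPKM against 0.0658, 0 and 0 FPKM (adjusted p = 0.06), with 26.9 and 86.5 FPKM in caMEK1 mCherry cells. Over 17 alternative fits its log2 difference ran from 0.11 to 7.42, and it was called in 4. The part of carried-over RNA in its GFP level was not tested.

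Several genes of secretory cells differed widely in level without passing the test. Clca1, a secreted protein that shapes the mucus of goblet cells, was at 1996 and 2222 FPKM in caMEK1 GFP cells and at 380, 201 and 181 FPKM in caMKK6 GFP cells. The groups stood far apart, with a log2 difference of 3.13 ± 0.62 (limma adjusted p = 0.067). Fcgbp, a mucus protein that binds Muc2, was at 1040 and 1028 FPKM against 315, 284 and 286 FPKM (1.81 ± 0.49, adjusted p = 0.278). Ang4, an antimicrobial ribonuclease of secretory cells whose promoter is shown above, was at 1073 and 1349 FPKM against 70.7, 8.51 and 8.07 FPKM (6.04 ± 1.40, adjusted p = 0.155). Its level also varied among untreated libraries of 1 line, at 5.85, 185 and 5.15 FPKM in caMEK1 and 13.5, 36.5 and 53.7 FPKM in caMKK6. Against untreated GFP cells of its own line, Ang4 rose in caMEK1 GFP cells (5.92 ± 1.40, adjusted p = 0.041).

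Goblet genes did not move together. Muc2, the gel-forming mucin, was at 911 and 831 FPKM in caMEK1 and 526, 1179 and 959 FPKM in caMKK6, and the ranges overlapped. Agr2, a disulfide isomerase needed to fold Muc2, was at 709 and 693 FPKM against 2634, 992 and 1157 FPKM (-1.04 ± 0.44, limma adjusted p = 0.669). Retnlb, a secreted goblet cell protein induced by bacteria and parasites, was at 628 and 575 FPKM against 579, 69.5 and 86.0 FPKM. Here caMKK6 replicate 1 stood with the caMEK1 libraries. Of the 20 goblet genes, all tested, 0 were called. Both caMEK1 libraries lay above all caMKK6 libraries for 8 and below them for 2, beside 9.84% above and 11.8% below over all genes, and the median log2 difference was 0.17. The median was 0.08 in untreated cells. With caMKK6 replicate 1 left out, 9 lay above and 5 below, beside 21.3% and 30.7% of all genes.

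**Figure D3:**
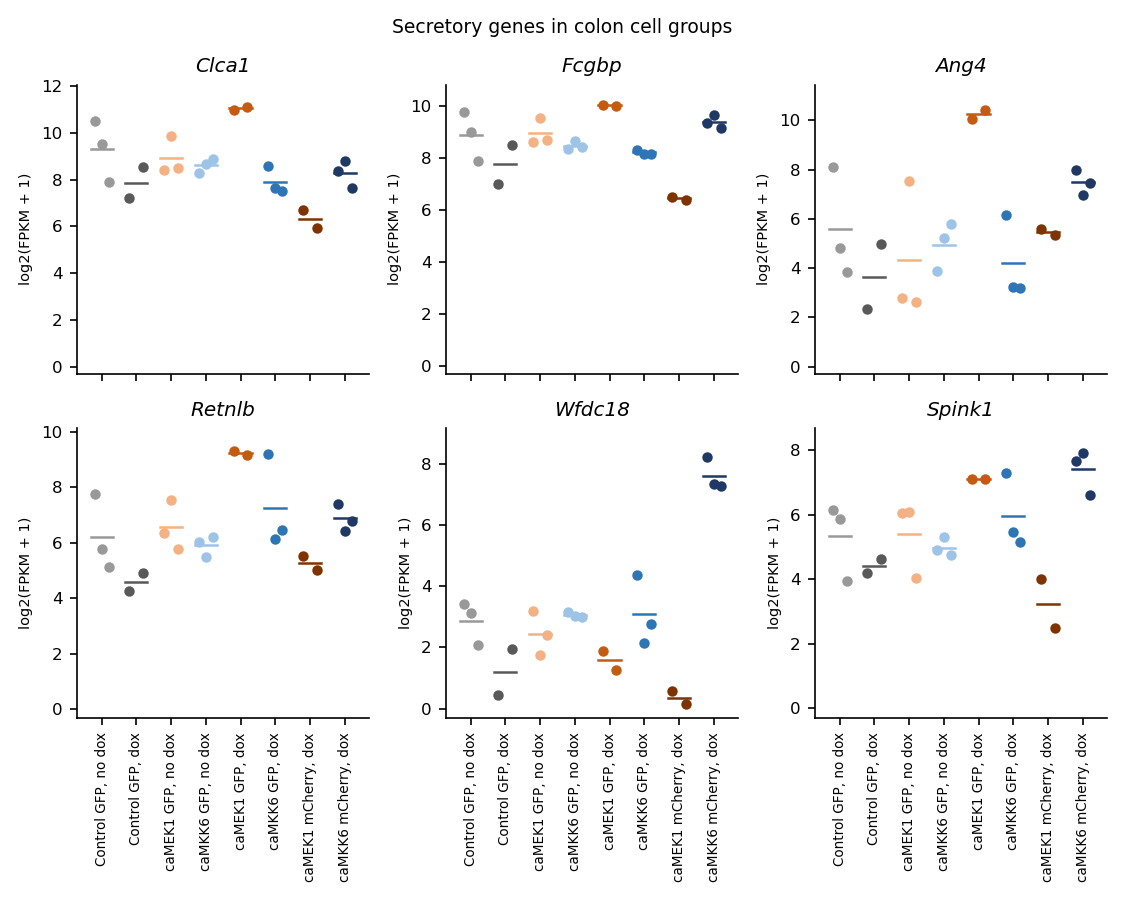
FPKM of secretory genes on a log2(FPKM + 1) axis, 1 point per library, by group of colon cells, with the group mean as a bar. For Clca1 the caMEK1 GFP libraries on doxycycline (1996 and 2222 FPKM) sit above the caMKK6 GFP libraries (181 to 380 FPKM), while the caMEK1 mCherry libraries sit lowest (103 and 60.9 FPKM).

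In the mCherry cells of the same animals the goblet genes lay lower in caMEK1, while in GFP cells the list had no common direction. The mCherry median was -2.45 and 16 of the 20 genes were called lower, beside 12.1% of all genes. The difference between kinases in mCherry cells minus that in GFP cells was called for 316 genes (2.74%), 124 higher and 192 lower (256 and 259 with the carry-over subtracted and rescaled). Among the 20 goblet genes it was called for 11, all lower, beside 1.66% of all genes, with a median of -2.80. The mCherry and GFP libraries come from the same animals, and with animal as a block 1685 genes were called, 729 higher and 956 lower, 17 of the goblet genes among the lower. Clca1 was at 103 and 60.9 FPKM in caMEK1 mCherry cells and 332, 441 and 201 FPKM in caMKK6 mCherry cells, for an interaction of -5.08 ± 0.88 (limma adjusted p = 0.00365). Fcgbp gave -4.73 ± 0.69 (adjusted p = 0.000799), and Tff3, the trefoil peptide of goblet cells, -4.92 ± 0.70 (0.000729). Tff3 was at 673 and 482 FPKM in caMEK1 GFP cells and 469, 342 and 361 FPKM in caMKK6 GFP cells, but at 96.4 and 34.2 FPKM against 1270, 1647 and 830 FPKM in mCherry cells. Both comparisons use the same 5 GFP libraries. The goblet count was 12 without caMKK6 GFP replicate 1, 5 without caMEK1 GFP replicate 1 or without caMEK1 mCherry replicate 2, and 13 with the carry-over subtracted and rescaled.

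Ang4, Wfdc18 and Spink1 had the lowest interactions under the naming rule. Ang4 gave -8.04 ± 1.98 (limma adjusted p = 0.0336), with 47.1 and 40.0 FPKM in caMEK1 mCherry cells against 254, 125 and 176 FPKM. Wfdc18, a small secreted protein with a protease-inhibitor fold, gave -5.74 ± 0.79 (adjusted p = 0.000635). It was at 2.68 and 1.41 FPKM in caMEK1 GFP cells and 19.4, 3.45 and 5.74 FPKM in caMKK6 GFP cells, and at 0.500 and 0.102 FPKM against 300, 161 and 153 FPKM in mCherry cells. Spink1, a trypsin inhibitor, gave -5.30 ± 0.99 (adjusted p = 0.00661). Spink1 was at 136 and 137 FPKM in caMEK1 GFP cells, within the caMKK6 GFP range of 34.8 to 154 FPKM.

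The genes with the highest interactions include targets of ERK signalling. Crip1, a small LIM-domain protein, gave 3.51 ± 0.68 (limma adjusted p = 0.00793), Dusp5, the nuclear phosphatase that switches off ERK, 3.35 ± 0.55 (0.00239), and Etv4, an ETS transcription factor induced by ERK, 3.20 ± 0.60 (0.00677). In GFP cells Dusp5 was at 27.3 and 38.7 FPKM in caMEK1 and 37.3, 36.5 and 17.3 FPKM in caMKK6, and the groups overlapped. Etv4 was at 12.7 and 18.0 FPKM against 27.2, 38 and 38.1 FPKM, with both caMEK1 libraries below. In mCherry cells Dusp5 was at 128 and 207 FPKM against 18.2, 13.5 and 9.50 FPKM. Of 20 ERK output genes 19 were tested: 0 were called in GFP cells (median 0.11), beside 0.078% of all genes, and 10 were higher in caMEK1 mCherry cells (median 1.17), beside 8.56%. The interaction was called higher for 4 of the 19, beside 1.07% of all genes. This count was 2 without caMEK1 GFP replicate 1 or without caMEK1 mCherry replicate 2, 3 with voom, 8 with the carry-over subtracted, and 10, with 1 more lower, when animal was a block. The GFP median had the opposite sign without caMKK6 replicate 1 (-0.12) and with the carry-over subtracted and rescaled (-0.21). Over all genes, the count of 316 was 71 without caMEK1 GFP replicate 1, 198 without caMEK1 GFP replicate 2, 75 without caMEK1 mCherry replicate 2 and 180 without caMKK6 mCherry replicate 3.

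Of 38 lists of pathways and cell identities, 1 held a called gene in GFP cells, the interferon list through Iigp1. Of 37 interferon genes 30 were tested, and their median log2 difference was 0.08. Gbp2, Ifi47 and Igtp, which respond to interferon like Iigp1, also had both caMEK1 libraries above, without being called, while Ifit2 and Cxcl10 had both below (9.84% above and 11.8% below over all genes). With caMKK6 replicate 1 left out, 15 of the 30 interferon genes had both caMEK1 libraries above and 2 below, and the median was 0.29. Over all genes the shares were then 21.3% above and 30.7% below. List medians ran from -0.85 for proliferation to 0.81 for tuft cells, beside 0.00 over all genes.

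**Figure D4:**
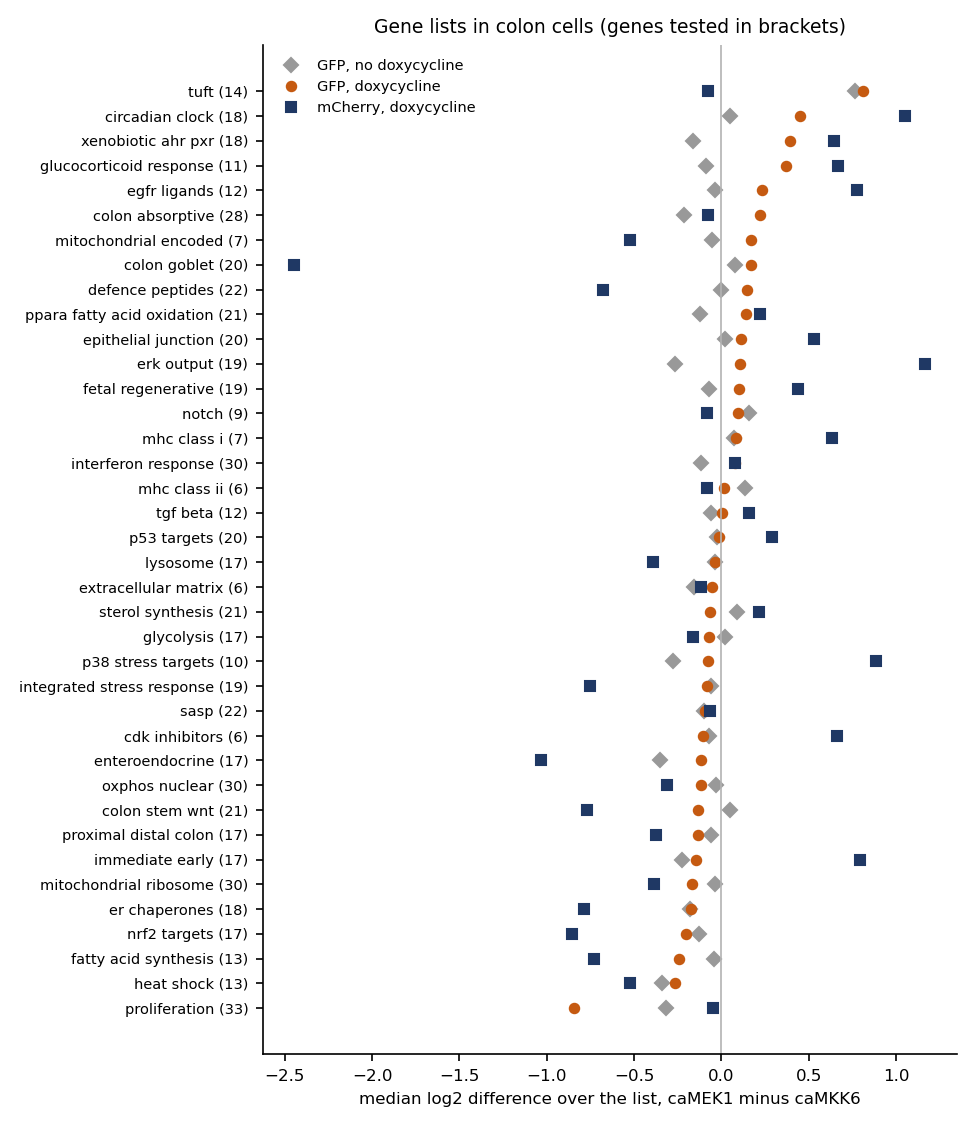
Median log2 difference between caMEK1 and caMKK6 cells for each gene list, for GFP cells on doxycycline, untreated GFP cells and mCherry cells, with the number of genes tested in brackets. In GFP cells on doxycycline, proliferation lies lowest (-0.85) and tuft cells highest (0.81), and the goblet list, near 0 in GFP cells, lies at -2.45 in mCherry cells.

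Genes of cell division had lower mean levels in caMEK1 GFP cells on the log2 scale, with 0 called. All 33 proliferation genes passed the filter, 33 had a log2 difference below 0, and for 25 both caMEK1 libraries lay below all 3 caMKK6 libraries, against 11.8% of all genes. Mki67, the proliferation antigen, was at 19.1 and 24.7 FPKM in caMEK1 and 11.1, 39.0 and 59.1 FPKM in caMKK6, where replicate 1 was the lowest of all. Pcna, the replication clamp, was at 19.1 and 23.5 FPKM against 49.6, 22.5 and 29.0 FPKM. Plk1, a mitotic kinase chosen after its values were seen, was at 8.92 and 7.33 FPKM against 20.6, 17 and 28.0 FPKM (-1.30 ± 0.38, limma adjusted p = 0.384). The list median was -0.32 in untreated cells and -0.05 in mCherry cells. Without caMKK6 replicate 1 it was -0.70, with 28 genes below beside 30.7% of all genes, and over all alternatives it ran from -0.97 to -0.64. Against untreated GFP cells of the same line, the median change on doxycycline was -0.74 in caMEK1, -0.24 in caMKK6 and -0.70 in control cells, with 0 genes called in each. The summed level of the list was 239 to 266 FPKM in caMEK1 GFP cells, 389 to 538 FPKM in caMKK6 and 238 to 581 FPKM in control GFP cells on doxycycline. Members of this list move with the cell cycle together and are not separate observations.

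Stem cell and Wnt genes were mixed, with 0 called. Of 23 genes 21 were tested, 6 had both caMEK1 libraries below (Lgr5, Smoc2, Cd44, Nkd1, Lrig1 and Cdca7) and 2 above (Prom1 and Bmi1), with a median of -0.14. Over all genes 11.8% lay below and 9.84% above. With caMKK6 replicate 1 left out, 12 lay below and 2 above, beside 30.7% and 21.3% of all genes, and the median was -0.30. Slc12a2, a chloride transporter of the crypt base, was at 63.4 and 45.9 FPKM in caMEK1 and 23.7, 55 and 80.6 FPKM in caMKK6, and Sox9 at 36.2 and 38.9 against 22.3, 60.8 and 62.7 FPKM. In both, caMKK6 replicate 1 was the lowest library and the other two caMKK6 libraries were near or above the caMEK1 pair.

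Tuft cell genes had the highest median. Of 15 genes 14 were tested, 0 were called, 8 had both caMEK1 libraries above and 0 below (9.84% and 11.8% over all genes), and the median was 0.81. Sh2d6, an adaptor of tuft cells, was at 6.18 and 10.4 FPKM in caMEK1 and 5.92, 1.48 and 1.07 FPKM in caMKK6 (1.46 ± 0.46, limma adjusted p = 0.432). Plcg2, a phospholipase also expressed by immune cells, was at 2.78 and 4.52 against 3.20, 2.70 and 4.26 FPKM. The median was nearly as high in untreated GFP cells, at 0.76. In mCherry cells Sh2d6 lay the other way, at 1.15 and 0.367 against 28.0, 17 and 16.5 FPKM (interaction -5.07 ± 0.65, adjusted p = 0.00036). Without caMKK6 replicate 1 the GFP median was 1.00 and 13 genes lay above, beside 21.3% of all genes.

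**Figure D5:**
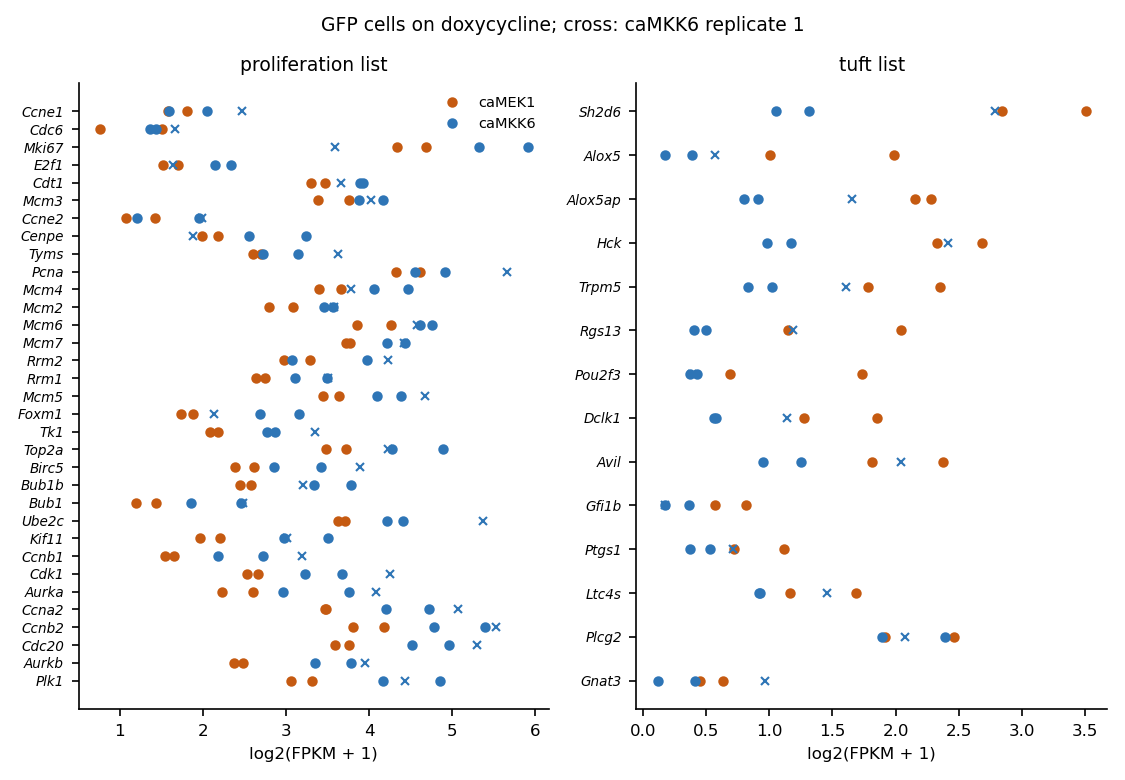
FPKM of each gene of the proliferation and tuft lists on a log2(FPKM + 1) axis in the 5 GFP libraries on doxycycline, with caMKK6 replicate 1 as a cross. Both caMEK1 libraries lie below all caMKK6 libraries for 25 of 33 proliferation genes and above them for 8 of 14 tuft genes.

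Lists of differentiated function showed smaller shifts, with 0 genes called in each. Of 28 absorptive genes, all tested, 7 had both caMEK1 libraries above and 0 below (median 0.22). For this and the lists that follow, the shares over all genes were 9.84% above and 11.8% below. Car1, the carbonic anhydrase of colonocytes, was at 962 and 1041 FPKM in caMEK1 and 1383, 772 and 649 FPKM in caMKK6, and Guca2a, guanylin, at 1054 and 1140 against 1265, 781 and 506 FPKM. Of 24 genes of fatty acid oxidation 21 were tested, 9 lay above and 1 below (median 0.14). Of 23 genes of drug metabolism 18 were tested and 5 lay above (median 0.39). Cyp2c55, a colonic cytochrome P450, was at 321 and 332 against 192, 150 and 126 FPKM, while in untreated cells it was at 487, 190 and 907 against 668, 616 and 983 FPKM. Of 21 circadian genes 18 were tested and 6 lay above (median 0.45). The circadian median was 0.05 in untreated cells and 1.05 in mCherry cells, where 9 were called higher (8.56% of all genes). Of 13 heat shock genes, all tested, 5 had both caMEK1 libraries below (median -0.26). With caMKK6 replicate 1 left out, counts above and below were 15 and 2 for absorptive genes, and 12 and 2 for fatty acid oxidation. They were 13 and 0 for drug metabolism, 6 and 2 for circadian genes, and 0 and 7 for heat shock. Over all genes the shares were then 21.3% above and 30.7% below.

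Some defence genes were highest in caMKK6 replicate 1. Reg3b, an antibacterial lectin, was at 212 and 399 FPKM in caMEK1 and 3339, 292 and 422 FPKM in caMKK6, and Reg3g at 41.3 and 69.1 against 612, 44.2 and 97.0 FPKM. The ranges of the 2 groups overlapped for both genes, with that library and without it. Of 30 genes of the defence list 22 were tested. Both caMEK1 libraries lay above for 3 and below for 3, near the 9.84% and 11.8% over all genes, and the median was 0.14. With caMKK6 replicate 1 left out, 10 lay above and 3 below, beside 21.3% and 30.7% of all genes, and the median was 0.43. Cd74, the invariant chain of MHC class II, was likewise highest in that library, at 25.7 FPKM against 1.08 and 3.59 FPKM in the other two and 14.2 and 6.91 FPKM in caMEK1.

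Markers of senescence and of the 2 pathways were not called in GFP cells. The endogenous kinases were at overlapping levels, Map2k1 at 49.3 and 56.9 FPKM in caMEK1 against 58.2, 59.5 and 53.1 FPKM, and Map2k6 at 8.73 and 6.86 against 6.94, 8.76 and 11.4 FPKM. Cdkn1a (p21), the inhibitor through which p53 stops the cycle, was at 58.1 and 78.1 against 56.9, 39.0 and 33.6 FPKM (0.66 ± 0.41, limma adjusted p = 0.842), with 135 and 210 FPKM in caMEK1 mCherry cells. Cdkn2b was at 30.1 and 29.4 against 48.1, 26.7 and 24.6 FPKM. Cdkn2a (p16 and p19Arf) was listed at 0 in 4 of the 5 libraries and at 0.201 FPKM in caMKK6 replicate 1, and Il6, an inflammatory cytokine, at 0 in the same 4 and 0.0969 FPKM. Both fell below the filter and were not tested.

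Gdf15, a secreted stress hormone, was at 11.2 and 12.6 FPKM in caMEK1 and 23, 38.7 and 23.1 FPKM in caMKK6, with both caMEK1 libraries below (-1.14 ± 0.46, limma adjusted p = 0.642). Lmnb1, the lamin lost in senescent cells, was at 13.9 and 16.7 against 21.8, 21.3 and 32.5 FPKM (-0.67 ± 0.36, adjusted p = 0.786). Areg, a ligand of the EGF receptor, was at 31.1 and 48.0 against 94.5, 35.5 and 16.7 FPKM. Dusp6, the cytoplasmic ERK phosphatase, was at 19.2 and 35.3 against 32.9, 32.7 and 29.1 FPKM, and Spry4, an inhibitor of ERK signalling, at 1.67 and 4.02 against 1.31, 2.56 and 2.72 FPKM. Among these, Spry4 differed in its mCherry response, with 12.7 and 17.4 FPKM in caMEK1 mCherry cells against 1.34, 0.781 and 1.26 FPKM (interaction 2.69 ± 0.38, adjusted p = 0.000635).

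Set against untreated GFP cells of its own line, each group of GFP cells had more called genes than the kinases had between them. In caMEK1, 154 genes were called (1.33%), 105 higher and 49 lower, and in caMKK6 300 (2.6%), 151 higher and 149 lower. In control GFP cells, doxycycline at 2 mg/mL called 0 genes (0%) by limma, with 1392 (12.1%) at an unadjusted p below 0.05 and a smallest adjusted p of 0.0991. The 2 control GFP libraries on doxycycline correlated at r = 0.92, the lowest value within any colon group. The 0 calls therefore do not show that doxycycline was without effect. Doxycycline and any difference in sucrose or day cannot be told apart in the comparisons with untreated cells. The kinase groups share no library in these comparisons. Of the genes that rose, 40 rose in both, which is 38.1% of the caMEK1 and 26.5% of the caMKK6 genes. Of those that fell, 22 fell in both (44.9% and 14.8%), and 0 moved in opposite directions. Over all 11542 genes tested, 105 rose in caMEK1 and 151 in caMKK6, and 49 and 149 fell. With so few genes called in either line, the 0 opposite moves are not read as a result.

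Some shared genes are given here, chosen after their values were seen. C3, the central complement protein, was at 22.8 and 12.3 FPKM in caMEK1 and 13.8, 7.75 and 12.5 FPKM in caMKK6, against at most 1.81 FPKM in untreated cells of both lines (log2 changes of 3.07 and 2.39, limma adjusted p = 0.00022 and 0.00159). Tef and Dbp, clock-controlled transcription factors, rose by 2.46 and 2.31 in caMEK1 and by 1.42 and 1.40 in caMKK6. Rbm3 and Cirbp, RNA-binding proteins induced by cold, and Socs3, a feedback inhibitor of cytokine signalling, rose in both as well. Slc30a10, a manganese exporter, fell from 10.1, 10.4 and 13.9 to 0.213 and 0.347 FPKM in caMEK1 and from 18.0, 17 and 20.6 to 2.40, 1.05 and 0.995 FPKM in caMKK6. Ccn3 fell by 3.68 in caMEK1 and fell by 2.12 in caMKK6 on the log2 scale. For each of these 8 genes the difference between the kinases' changes had an adjusted p of 1, which does not show that the changes are equal.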

How the data were processed

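The authors deposited FPKM values in 1 table of 21863 entries, 4 of them reporters and transgenes. Per the submitters' processing notes, reads were trimmed with cutadapt 1.12 and aligned to mm10 with STAR 2. The counting tool, its annotation and the strand setting are not given in the sources used here. FPKM divides by depth, so a gene's value moves when others take more reads. Divided by the value of 1 read at each gene's exon length, 100% of the entries up to 1000 reads came out whole, with a tolerance of 0.02. This gave the depth and, for an alternative, reads for voom (a sampling error that grows as reads fall).

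All 23 colon libraries (9 groups) entered a single limma 3.58.1 model (R 4.3.3, moderated with a mean trend) of log2(FPKM + 1). Genes needed 1 FPKM in no fewer than 2 colon libraries. The model had 14 residual degrees of freedom. Tests were two-sided, adjusted by Benjamini-Hochberg over all genes of a comparison and called below 0.05. Differences on this scale understate the change of low genes. Coordinates are GRCm38. No exact test of 2 against 3 libraries can go below p = 0.2, so single values were not permuted. On simulated data with these groups, 63 of 100 genes changed by 1 and 91 of 100 changed by 2 on the log2 scale were called. The simulation gave each gene the same independent noise in every library, with no shared animals and no noisier library. It also held many more changed genes than were called here, which makes the adjusted threshold easier to pass. These shares are therefore not the sensitivity in the real data.

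Named genes were 12 sentinels, the 12 largest called differences each way among genes whose groups do not overlap and whose higher group averages at least 5 FPKM, the 3 largest each way in the other 3 comparisons, and list members: up to 4 called, otherwise the 2 of highest level. Some genes the rule names are not reported here. Members, lists and rule were chosen with earlier results of these data known. Lists are described by counts and medians. Alternatives were another pseudocount (0.1), no filter or 5 FPKM, median scaling, quantile normalization, replicate blocks, only the groups compared, voom, carry-over subtraction and each library left out. Carry-over subtraction removed, from each GFP library, the mCherry library of the same animal times the mCherry ratio. Per the labels, mCherry and GFP libraries share animals, and with animal as a block their estimated correlation was 0.47. Rescaling after subtraction and a fit of GFP libraries alone were chosen after seeing the data. Tables were handled in Python 3.11.15 with pandas 2.3.3.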

Additional observations from a re-analysis of the deposited data

Results flagged for a closer look

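The interaction of kinase and doxycycline was called for 5 genes in GFP cells by limma. The log2 interaction was 3.69 for Psca, 3.00 for Sprr2h and 2.75 for Prss22, with both caMEK1 libraries on doxycycline above all caMKK6 libraries in each. Of the interaction calls, 0 were made with voom and 0 with the carried-over share of mCherry cell RNA subtracted, or 1 when the libraries were then rescaled.

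The difference between kinases was not the same in mCherry cells and in GFP cells of the same animals for 316 genes, by the same kind of test (1685 with animal as a block). It was more positive in mCherry cells for Crip1 (3.51), Dusp5 (3.35) and Etv4 (3.20). It was more negative in mCherry cells for Spink5 (-2.83), Ang4 (-8.04), Wfdc18 (-5.74) and Spink1 (-5.30), all on the log2 scale. For Spink5 the difference was -0.55 in mCherry cells and 2.27 in GFP cells, and for Wfdc18 it was -7.25 and -1.51. The part of the doxycycline dose, of the animals' Y-linked gene levels and of carried-over RNA in these differences was not tested beyond the values given with each gene.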

How the results depend on the processing

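For GFP cells on doxycycline the count of 9 genes became 28 with no filter, 14 with a replicate block by animal, 4 in a fit of only the groups compared, 4 with voom, 4 with carry-over subtracted and 18 with GFP libraries alone, and ran from 7 to 19 with 1 library left out. The replicate block by title number gave 8. Title numbers do not mark shared animals between the kinases, and same-numbered libraries deviated with r of 0.04 and -0.06. Without doxycycline the count of 0 became 2 with no filter and 3 with only the groups compared. It ran from 0 to 0 with 1 library left out. The interaction count of 5 became 1 with a pseudocount of 0.1, 9 with no filter, 1 with the 5 FPKM filter, 2 with the title-number block, 0 with voom, 0 with carry-over subtracted and 1 when also rescaled. It ran from 2 to 11 with 1 library left out. The mCherry minus GFP count of 316 became 208 with the 5 FPKM filter, 1685 with the block by animal, 182 with only the groups compared, 105 with voom, 525 with carry-over subtracted and 515 when also rescaled, and ran from 71 to 437 with 1 library left out. The causes were not tested. Among the 17 alternatives, Pnliprp2 was called in 16, Psca and Prl2a1 in 15, Prss22 and Spink5 in 14, Sprr2h in 13, Eif2s3y in 11 and Ly6c1 in 5, and Iigp1 in 13 of its 16. No called difference changed sign. Of 728 list medians recomputed under these alternatives, 47 moved by more than the spread between replicates.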
